A study of Mus musculus with 3 samples.

Results

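ATP-binding cassette (ABC) transporter genes were taken as all gene symbols in the FPKM tables that begin with Abc, a subfamily letter from a to g and a digit. The tables hold 50 such genes among 23361, and 34 of them reached an FPKM of 1 in one or more of the 3 liver libraries, as did 10792 genes in all. FPKM is a fragment count scaled to the length of the transcript and the size of the library. Of the 34 genes, 30 were at or above 1 in all 3 libraries. The remaining 16 genes stayed below 1 in each library, and 5 of these, Abca12, Abca16, Abcb5, Abcc8 and Abcg4, were listed at 0 throughout. The other genes below the limit were Abca4, Abca5, Abca7, Abca13, Abca14, Abca15, Abca17, Abcb1b, Abcb9, Abcc1 and Abcc12. Closest to the limit from above were Abcc10, Abcc5 and Abca9, with highest values of 1.04, 1.05 and 1.13, and closest from below were Abca5, Abcc1 and Abca7 with 0.902, 0.868 and 0.851.

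Mouse liver mRNA was profiled in a sham group, a warm ischemia (WI) group and an ischemia followed by reperfusion (IR) group, with 1 library per group. All animals were C57BL/6J mice labelled male, 8 to 10 weeks old and fasted for 12 h, and all had a laparotomy under chloral hydrate. In the WI and IR groups a clamp on the portal triad cut the blood supply of the left and median lobes, 70% of the liver, for 90 min. The IR livers were then reperfused for 120 min, while livers of the sham group, which had no occlusion, were collected at 90 min. The study had 6 mice per group, and the sources do not state whether a library pools the RNA of several mice. A sham group of the same duration as IR was not analysed here, so reperfusion and added time after surgery cannot be told apart in any comparison with IR.

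ABC transporters are membrane proteins that use ATP to move substrates across a lipid bilayer, in most cases out of the cytosol. In hepatocytes several of them sit on the canalicular membrane and secrete bile salts, phospholipid, cholesterol and conjugated organic anions, which together drive bile flow. Others load cholesterol onto apolipoprotein A1, return conjugates to the blood, bring fatty acyl-CoA into peroxisomes or serve mitochondria and lysosomes. Members of subfamilies E and F have the ATP-binding domains but no membrane domain, and act on ribosomes and translation.

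Each library stands alone, so the spread between mice is unknown and no test was made. Differences are given as log2 of the ratio of FPKM + 1. The value after ± is the 95% interval of that difference computed from the 95% bounds of each FPKM in the tables, which reflect the fragment-count model of Cuffdiff and not variation between animals. A gene was counted as risen or fallen when FPKM + 1 differed at least 2-fold. A stricter count took only genes whose 95% bounds did not overlap. Expressed as a coefficient of variation, the bounds of the 34 genes had a median of 24.4% in Sham, 24.5% in WI and 24.5% in IR, and the widest was 53.6%. The tables give no read counts, so the number of fragments behind each value is unknown. The RNA is from whole tissue, so fewer cells of a type and less RNA per cell cannot be told apart.

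The 3 libraries differed in more than treatment. Xist, the RNA that coats the inactive X chromosome of female cells, was at 18.9 FPKM in Sham, 20.2 in WI and 1.29 in IR. The Y-linked Eif2s3y was at 0, 0 and 13.2, and Ddx3y at 0, 0.00849 and 8.58. The libraries labelled Sham and WI thus go against their male label. The IR library holds Y-linked RNA with a little Xist beside it (bounds 0.639 to 1.94), so whether it is of males alone is unknown. Sex and reperfusion cannot be told apart in comparisons with IR. The Sham and WI libraries shared the pattern of Xist with almost no Y-linked RNA. Summed neutrophil markers (6 genes) were 25.4, 19.3 and 469 FPKM in Sham, WI and IR, with 6 of 6 past 2-fold higher in IR than in WI. Summed Kupffer cell and macrophage markers (8 genes) were 497, 254 and 165, with 8 of 8 lower in WI than in Sham and 6 of 8 past 2-fold lower in IR than in Sham. Summed hepatocyte markers were 12384, 10868 and 11418, and none of the 8 passed 2-fold in any comparison, although Alb was listed at 0 in all 3 libraries with the status HIDATA, Cuffdiff's mark for a locus with too many fragments to process. The part of these differences in the results for ABC transporter genes was not tested.

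**Figure D1:**
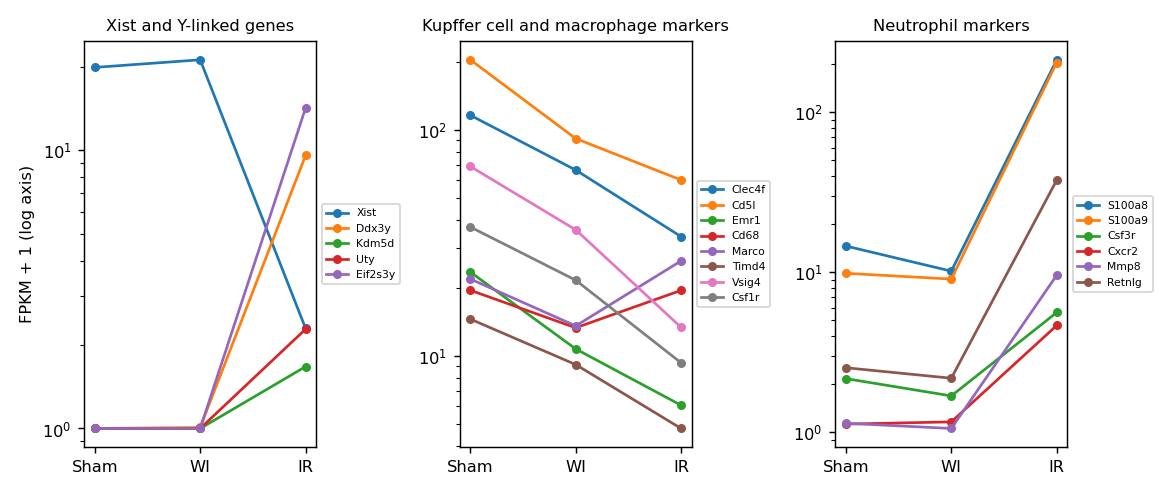
Levels of Xist and Y-linked genes, of Kupffer cell and macrophage markers and of neutrophil markers in the Sham, WI and IR libraries, as FPKM + 1 on a log axis. Each line joins the 3 single-library values of 1 gene. Xist was high in Sham and WI and low in IR, Y-linked genes were above 0.6 FPKM only in IR, and all 6 neutrophil markers were highest in IR.

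Every subfamily had expressed members. The count of expressed genes was 7 of 16 in A, 7 of 10 in B, 7 of 10 in C, 4 of 4 in D, 1 of 1 in E, 3 of 3 in F and 5 of 6 in G. The summed level of all ABC genes was 850 FPKM in Sham, 882 in WI and 723 in IR. Subfamily D held the largest share in Sham and WI, with 25.3% and 23.8%, followed by 22.6% in IR. Most of this came from Abcd3, which was the most abundant ABC mRNA in each library. Subfamily B held 18.6% in Sham, 23.1% in WI and 24.8% in IR, the largest share in that library. Subfamily C went the other way, from 20.6% to 18.8% and 15.4%. These shares are ratios of single values and carry no error between mice.

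**Figure D2:**
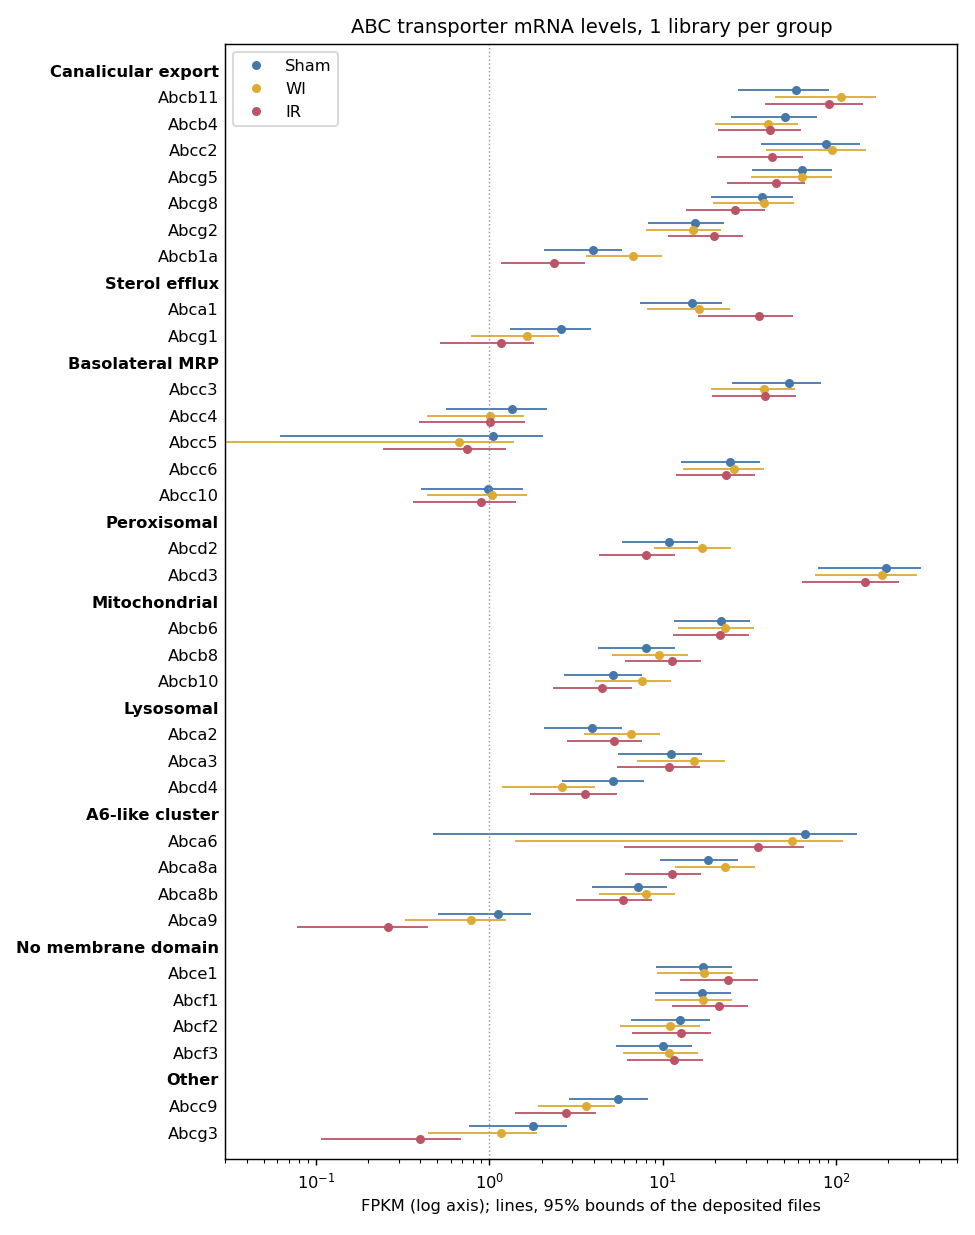
FPKM of 32 expressed ABC transporter genes by role in the Sham, WI and IR libraries, on a log axis. Points are the single-library values and lines their 95% bounds, cut at the left edge where the lower bound is near 0. The dotted line marks 1 FPKM. Abcd3 lies furthest right in every library, and the bounds of most genes overlap between libraries.

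Comparing WI with Sham asked how the mRNAs stood at the end of ischemia. No ABC transporter gene rose or fell 2-fold, where 0.751% of all expressed genes rose and 1.1% fell. No ABC gene had bounds that did not overlap either, against 0.195% of all genes higher and 0.482% lower. With 34 genes, shares of that size amount to less than 1 gene, so these zero counts are near the background. The median difference was 0.04 over the ABC genes, 20 higher and 14 lower, and 0.02 over all expressed genes. The largest differences were those of Abcb11, higher by 0.84 ± 1.13 in WI, and of Abcd4, lower at -0.77 ± 0.83. Both intervals include 0.

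Comparing IR with WI asked what stood differently after 120 min of blood flow. Of the 34 genes, 1 rose 2-fold (Abca1), against 5.78% of all expressed genes, and 2 fell (Abcb1a and Abcc2), against 1.43%. Bounds that did not overlap were seen in 0 genes higher in IR (3.22% of all genes) and in 1 gene lower, Abcb1a (0.398%). The median was -0.29 over the ABC genes, of which 11 were higher and 23 lower in IR, and 0.03 over all expressed genes, of which 52.4% were higher. Over the 30 ABC genes at or above 1 FPKM in every library the median was also -0.29. So the ABC genes were shifted to lower values in the IR library relative to all genes. With 34 genes, the counts of 1 risen and 2 fallen are too small to be set apart from the shares of all genes.

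Between IR and Sham, 1 gene rose 2-fold (Abca1), against 5.35% of all expressed genes, and 1 fell (Abcc2), against 2.15%. Bounds did not overlap for 0 genes higher in IR (2.7% of all genes) and for 2 genes lower in IR, Abca9 and Abcg3 (1.12%). Abca9 passed the limit of 1 FPKM in Sham alone and Abcg3 in Sham and WI alone, so both entered through the libraries in which they were high. The median was -0.26 over the ABC genes, 9 higher and 25 lower, and 0.05 over all genes, of which 54.4% were higher. The 3 comparisons share libraries, so they are not independent of each other. Over the 3 libraries, 15 ABC genes had their highest value in WI, 12 in Sham and 7 in IR. Of all expressed genes, 27.0% had theirs in WI, 28.7% in Sham and 44.3% in IR. Among the ABC genes counted, Abca9 and Abcc5 entered through Sham alone and Abcc10 through WI alone, where each was highest.

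**Figure D3:**
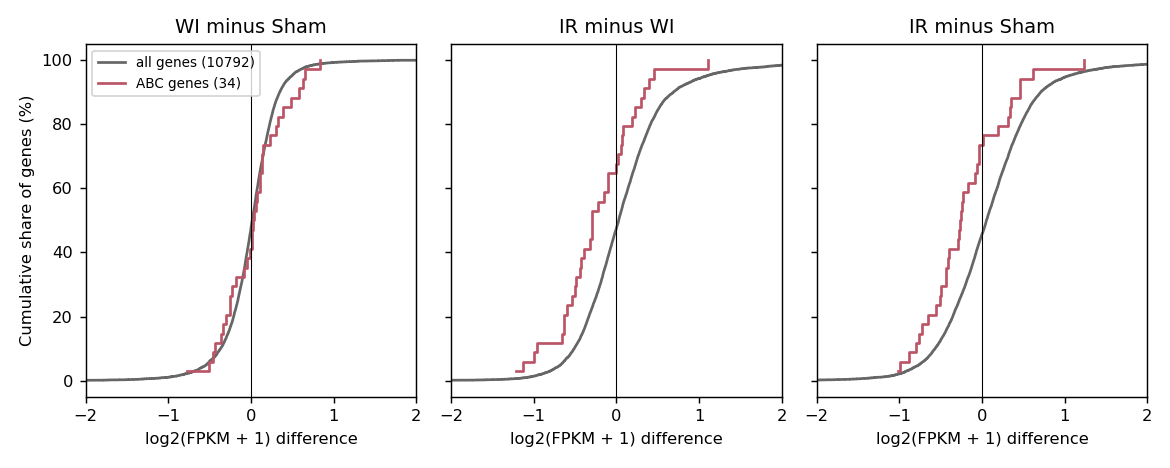
Cumulative share of genes (percent) by log2(FPKM + 1) difference, for the 34 ABC transporter genes (red) and all 10792 expressed genes (grey), in each comparison. Values beyond 2 in either direction lie outside the axes. The curves run close together for WI minus Sham, and the ABC curve lies to the left of the grey curve over most of its range in both comparisons with IR, where the ABC medians were -0.29 and -0.26.

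The summed FPKM over all genes was 475754 in Sham, 487912 in WI and 712423 in IR, so rescaling to a common sum (TPM) moved the median of all genes by -0.48 for IR against WI and by -0.51 for IR against Sham, to -0.45 in each. On that scale 0 ABC genes rose and 10 fell 2-fold in IR against WI, where 3.57% of all genes rose and 11.0% fell. Against Sham 0 rose and 11 fell, where 2.96% of all genes rose and 14.4% fell. The difference of Abca1 on that scale was 0.59 against WI and 0.70 against Sham, short of 2-fold. Scaling by the median ratio between libraries, with factors between 0.969 and 1.03, left Abca1 at 1.06 and 1.16. The median of the ABC genes relative to that of all genes was -0.32 in both comparisons with IR as deposited, and -0.32 and -0.35 after TPM scaling.

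Abca1 (chr4:53030789-53159895, mm10, as are all gene positions) exports cholesterol and phospholipid to apolipoprotein A1, the first step in forming high-density lipoprotein. Its mRNA was at 14.7 FPKM in Sham (bounds 7.41 to 21.9), 16.2 in WI (8.09 to 24.3) and 36.0 in IR (16.1 to 56.0). It stood apart in IR, where it moved from rank 15 to rank 7 among the ABC genes. The difference was 0.13 ± 0.95 for WI against Sham, 1.11 ± 1.03 for IR against WI and 1.24 ± 1.03 for IR against Sham. The bounds of the IR value still overlapped those of the other libraries. Macrophages and neutrophils express Abca1 as hepatocytes do, and the marker sums of those cells in the same libraries went in opposite directions, as given above.

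Abcg1, which passes cholesterol to mature lipoprotein particles and is high in macrophages, had its values in the reverse order. It was at 2.59 FPKM in Sham, 1.66 in WI and 1.17 in IR, and IR minus Sham was -0.73 ± 0.67, short of 2-fold. Its order over the libraries was that of the Kupffer cell and macrophage sum (497, 254 and 165), although 2 of those 8 markers were higher in IR than in WI. The same order was seen in 8 ABC genes, Abcg1 among them, in part by very small steps. The share of all expressed genes with that order was not computed, so the count is not read as a result. Whether the values of Abcg1 rest on the number of macrophages was not tested. Over the 4 expressed sterol efflux genes (Abca1, Abcg1, Abcg5 and Abcg8), 1 rose and 0 fell 2-fold in IR against Sham. Of all expressed genes, 5.35% rose and 2.15% fell. The other 3 sterol efflux genes were lower in value, short of 2-fold as deposited and past it on the TPM scale. The median of the 4 as deposited was -0.50, against 0.05 over all genes.

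Abcg5 and Abcg8 form the obligate heterodimer that secretes cholesterol and plant sterols into bile. Abcg5 was at 63.8 FPKM in Sham, 63.5 in WI and 44.9 in IR, and Abcg8 at 37.5, 38.4 and 26.2. Both had their lowest value in IR, with a difference against Sham of -0.50 ± 0.97 for Abcg5 and -0.50 ± 0.96 for Abcg8, intervals that include 0. The ratio of Abcg5 to Abcg8 stayed at 1.70, 1.66 and 1.71, so the partner mRNAs kept their proportion while their values differed between libraries. The genes lie head to head on chromosome 17, 207 bases apart in the gene models of the tables. In RefSeq (GRCm38.p6, the assembly of mm10) their starts are 110 bases apart on opposite strands, and a single window covers both. Short common motifs were sought on both strands in the window from 250 bases before to 50 after each RefSeq start.

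The windows of the genes that the values above and below turn on are printed 5′ to 3′ on the strand of the named gene, with motif matches in capitals. Abca1 and Abcc2 passed 2-fold in IR, Abcb11 had the largest difference in WI, and the Abcg8 window (chr17:84682871-84683170, plus strand) also holds the start of Abcg5. The Abca1 window is chr4:53159846-53160145 (minus strand), that of Abcc2 is chr19:43782058-43782357 (plus strand) and that of Abcb11 is chr2:69342567-69342866 (minus strand).
Abca1: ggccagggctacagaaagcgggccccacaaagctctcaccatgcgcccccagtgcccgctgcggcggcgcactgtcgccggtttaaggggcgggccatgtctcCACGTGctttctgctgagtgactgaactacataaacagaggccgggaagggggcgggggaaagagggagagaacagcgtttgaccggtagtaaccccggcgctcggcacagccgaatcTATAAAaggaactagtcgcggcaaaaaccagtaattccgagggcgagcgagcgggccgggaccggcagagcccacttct
Abcc2: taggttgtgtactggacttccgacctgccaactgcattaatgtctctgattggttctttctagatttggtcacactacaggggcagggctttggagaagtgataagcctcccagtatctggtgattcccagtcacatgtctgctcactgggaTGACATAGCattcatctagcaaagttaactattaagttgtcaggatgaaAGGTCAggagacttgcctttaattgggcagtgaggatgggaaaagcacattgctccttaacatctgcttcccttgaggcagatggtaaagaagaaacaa
Abcb11: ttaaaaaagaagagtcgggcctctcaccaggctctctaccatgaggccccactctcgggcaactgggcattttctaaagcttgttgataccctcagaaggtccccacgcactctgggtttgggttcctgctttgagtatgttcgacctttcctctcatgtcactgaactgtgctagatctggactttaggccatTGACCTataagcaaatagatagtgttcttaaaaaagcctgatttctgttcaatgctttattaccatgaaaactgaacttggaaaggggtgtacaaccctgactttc
Abcg8: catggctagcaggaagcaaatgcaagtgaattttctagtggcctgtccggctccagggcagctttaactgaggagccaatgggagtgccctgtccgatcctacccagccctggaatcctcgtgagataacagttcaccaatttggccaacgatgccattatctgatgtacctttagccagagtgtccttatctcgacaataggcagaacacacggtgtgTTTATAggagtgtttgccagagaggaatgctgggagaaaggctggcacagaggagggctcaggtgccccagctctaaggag
The Abca1 window holds TATAAA, the TATA box letters, from 29 bases before the start and the E-box CACGTG from 147 bases before it. That of Abcc2 holds the nuclear receptor hexamer AGGTCA from 49 bases before the start and TGACATAGC, a match to the antioxidant response core TGACNNNGC, from 98 bases before it. That of Abcb11 holds the hexamer on the other strand (TGACCT) from 56 bases before the start, and that of Abcg8 the TATA letters on the other strand (TTTATA) from 31 bases before it.

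Promoter windows were found for 25 of the 34 expressed genes, 32 windows in all since some genes have more than 1 start. AGGTCA was in 7 of these 32 windows (of Abcb6, Abcb11, Abcc2, Abcc10 and Abcg2) and in 16.2% of all 32544 windows. TGACNNNGC was in 7 (of Abca8b, Abcb1a, Abcc2, Abcc4 and Abcc10) and in 12.4% of all windows. TATAAA was in 6 (of Abca1, Abcb6, Abcg2, Abcg5 and Abcg8) and in 13.6% of all windows, with Abcg5 and Abcg8 sharing a single site in their overlapping windows. CACGTG was in 5 (of Abca1, Abca8a, Abca8b, Abcc4 and Abcf1) and in 7.17%. A site that opens with TGACC can match both the first and the second motif. These matches describe the letters only, and binding was not measured.

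Among the canalicular exporters, Abcb11 (chr2:69238282-69342616), the bile salt export pump, was at 58.9 FPKM in Sham (27.2 to 90.5), 106 in WI (44.1 to 168) and 91.1 in IR (39.1 to 143). It moved from rank 5 in Sham to rank 2 in both other libraries. No difference passed 2-fold, with 0.84 ± 1.13 for WI against Sham, -0.22 ± 1.17 for IR against WI and 0.62 ± 1.12 for IR against Sham. On the TPM scale the differences were 0.81, -0.76 and 0.05, so the higher value in IR than in Sham was nearly lost there. Abcb4, the floppase that supplies phosphatidylcholine to bile and so shields membranes from bile salts, was at 51.0, 40.2 and 41.8 FPKM. The ratio of Abcb11 to Abcb4 mRNA was therefore 1.16 in Sham, 2.64 in WI and 2.18 in IR. With all bounds overlapping, this ratio has no check between mice.

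Abcc2 (chr19:43782308-43838218), the canalicular pump for bilirubin glucuronide and glutathione conjugates, was at 87.3 FPKM in Sham (37.1 to 138), 94.3 in WI (39.5 to 149) and 42.6 in IR (20.5 to 64.7). Its IR value was the low one. The difference was 0.11 ± 1.17 for WI against Sham, -1.13 ± 1.11 for IR against WI and -1.02 ± 1.10 for IR against Sham. Abcc2 thus fell past 2-fold in both comparisons with IR, with bounds that overlapped in both and an interval that included 0 against Sham. On the TPM scale it was lower still, at -1.68 against WI and -1.60 against Sham. Abcc3, which exports similar conjugates across the opposite, basolateral membrane into blood, was at 53.4, 38.5 and 39.1 FPKM. The ratio of Abcc2 to Abcc3 was 1.64 in Sham, 2.45 in WI and 1.09 in IR.

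Abcb1a (chr5:8660092-8748570) encodes a P-glycoprotein, an efflux pump for many lipophilic drugs. It was at 3.95 FPKM in Sham (2.06 to 5.83), 6.76 in WI (3.63 to 9.90) and 2.36 in IR (1.16 to 3.56). Its value was highest in WI and lowest in IR, and these 2 sets of bounds did not overlap. It fell by 1.21 ± 0.78 in IR against WI, with 0.65 ± 0.80 for WI against Sham and -0.56 ± 0.75 for IR against Sham. Abcb1b, the other mouse P-glycoprotein gene, stayed under the limit at 0.178, 0.103 and 0.361 FPKM. Abcb1a, Abcb1b and Abcb4 are neighbours of similar sequence on chromosome 5, so the split of fragments among them is uncertain. Abcg2, a canalicular exporter of drugs, urate and porphyrins, was at 15.3, 14.9 and 19.8 FPKM. Of the 7 expressed canalicular genes, 0 rose and 2 fell in IR against WI, with a median of -0.49, where 5.78% of all genes rose, 1.43% fell and the median was 0.03.

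**Figure D4:**
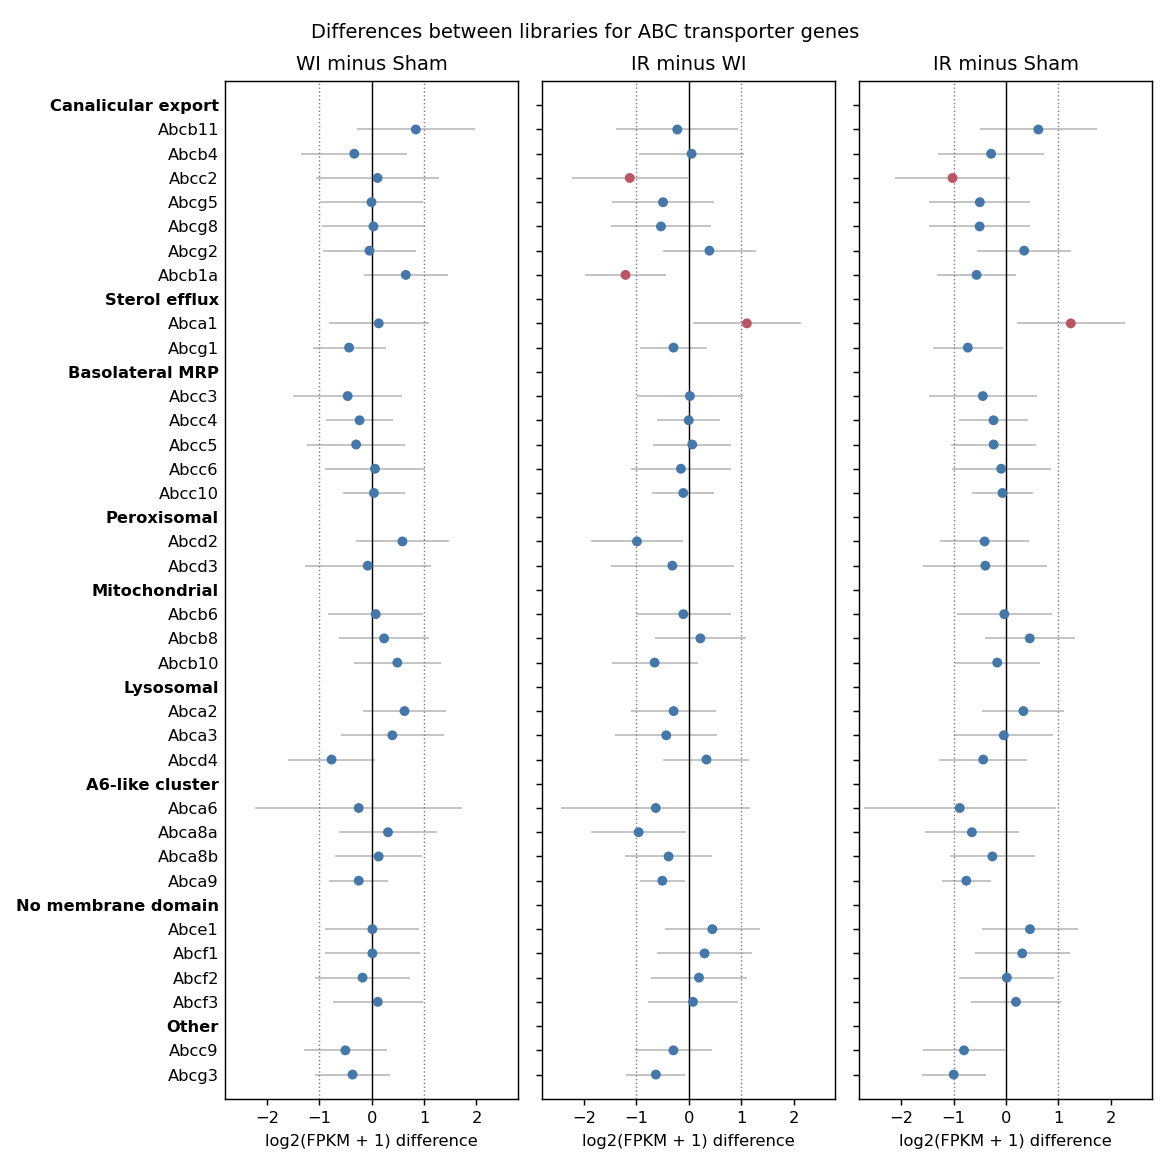
Difference in log2(FPKM + 1) of 32 expressed ABC transporter genes for WI minus Sham, IR minus WI and IR minus Sham, by role. Points are differences between single libraries, lines the 95% interval from the bounds in the tables, dotted lines mark 2-fold, and red points lie past it. Abca1 lies past 2-fold on the high side and Abcc2 on the low side in both comparisons with IR, Abcb1a on the low side in IR minus WI only, and no gene passes in WI minus Sham.

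The basolateral multidrug resistance proteins were represented by 5 expressed genes, none past 2-fold in any comparison as deposited. In no comparison did more than 5.78% of all expressed genes rise or more than 2.15% fall. A lack of calls among 5 genes is thus near the background, as it is for the small groups below. On the TPM scale Abcc3 fell past 2-fold in IR against Sham, where 14.4% of all genes fell. Abcc6, which releases ATP from hepatocytes and so sustains plasma pyrophosphate, was at 24.6, 25.7 and 23.0 FPKM, a narrow range. Abcc4, an exporter of bile salts and cyclic nucleotides, was near the limit at 1.36 FPKM in Sham, with differences of -0.23 for WI and -0.24 for IR against it. Abcc5, an exporter of nucleotide analogs, was at 1.05, 0.670 and 0.747, and its lower bound in WI was 0. Abcc10 was at 0.985, 1.04 and 0.897 FPKM. Abcc5 reached 1 FPKM in Sham alone and Abcc10 in WI alone, so each entered through the library in which it was highest. Over the wider set of 8 expressed multidrug resistance genes, which adds Abcb1a, Abcc2 and Abcg2, 0 rose and 1 fell in IR against Sham, where 5.35% of all genes rose and 2.15% fell.

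The peroxisomal subfamily D transporters carry very-long-chain and branched fatty acyl-CoA esters into the organelle. Abcd3, an abundant peroxisomal membrane protein, was at 193 FPKM in Sham (78.2 to 309), 183 in WI (75.3 to 291) and 147 in IR (63.3 to 231). It kept rank 1 throughout, and no difference passed 2-fold. Abcd2, a less abundant transporter of the same membrane, was at 10.9 (5.84 to 16.0), 16.9 (8.88 to 24.9) and 7.99 (4.29 to 11.7), with IR minus WI at -0.99 ± 0.88, just short of 2-fold. Its value was highest in WI and lowest in IR. With pseudocounts of 0.1 and 0.01, and on the TPM and median-ratio scales, Abcd2 fell past 2-fold in IR against WI.

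Of the mitochondrial transporters, Abcb10, which serves heme synthesis in erythroid and other cells, was at 5.14 FPKM in Sham, 7.62 in WI and 4.48 in IR. Abcb6, a porphyrin transporter that has been placed at several membranes, was at 21.8, 23.0 and 21.3. Abcb8 was at 7.96, 9.55 and 11.3 and, unlike Abcb6 and Abcb10, was highest in IR, a position it lost on the TPM scale, where its differences for IR turned negative. Abcb6, Abcb8 and Abcb10 were each higher in WI than in Sham in value, and none of them passed 2-fold in any comparison as deposited. On the TPM scale Abcb10 fell past 2-fold in IR against WI, where 11.0% of all genes fell. Summed erythroid markers (6 genes) were 751, 518 and 1976 FPKM, and their part in these levels was not tested.

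The lysosomal group held Abcd4, Abca2 and Abca3. Abcd4, which with a partner releases vitamin B12 from lysosomes, was at 5.18 FPKM in Sham (2.61 to 7.75), 2.63 in WI (1.19 to 4.07) and 3.58 in IR (1.71 to 5.45). Its WI value was the lowest of the 3 while Abca2 was highest there, at 3.93, 6.60 and 5.21 FPKM. Abca3, best known as the phospholipid transporter of lung surfactant, was at 11.2, 15.1 and 10.9, with the locus overlapping the gene model D330041H03Rik, which was at 5.82, 11.4 and 9.88. The sources do not state that reads were counted by strand, so fragments of the overlap cannot be told apart. None of the 3 passed 2-fold.

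Abca8b, Abca8a, Abca9, Abca6 and Abca5 are a tandem cluster on chromosome 11 (chr11:109933406-110337716) of related sequence, with gaps of 4884 to 29817 bases between neighbours. Abca6 was the most abundant at 66.4 FPKM in Sham, 55.7 in WI and 35.6 in IR, but with bounds of 0.473 to 132 in Sham it was also the least certain. Abca8a was at 18.3 (9.57 to 27.1), 22.9 (11.8 to 34.1) and 11.3 (6.05 to 16.6) FPKM, and IR minus WI was -0.96 ± 0.91. Abca8b was at 7.23, 8.01 and 5.89 FPKM. Abca9 was at 1.13 (0.504 to 1.75), 0.788 (0.325 to 1.25) and 0.259 (0.0781 to 0.440), so that its bounds in Sham and IR did not overlap, although on the FPKM + 1 scale the difference was -0.76 ± 0.47 and under 2-fold. It entered through Sham, the one library in which it reached 1 FPKM. Abca6, Abca8a and Abca8b, which were above 1 FPKM throughout, each had their lowest value in IR, and none passed 2-fold as deposited. Abca8a passed it in IR against WI with pseudocounts of 0.1 and 0.01 and with median-ratio scaling. On the TPM scale Abca6 and Abca8a fell past 2-fold in both comparisons with IR, where 11.0% (WI) and 14.4% (Sham) of all genes fell. Fragments shared among such relatives could have been split differently in the counting.

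The 4 genes without a membrane domain showed differences smaller than their intervals in each comparison. Abce1, the ribosome recycling factor, was at 17.1, 17.3 and 23.9 FPKM. Abcf1, which acts in translation initiation, was at 16.9, 17.0 and 21.2, Abcf2 at 12.6, 11.1 and 12.8, and Abcf3 at 10.0, 10.9 and 11.6. Each of the 4 was higher in IR than in WI as deposited, by a median of 0.25, where 52.4% of all expressed genes were higher. On the TPM scale each of the 4 turned lower. None passed 2-fold.

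Outside these groups were Abcc9 and Abcg3. Abcc9, the sulfonylurea receptor subunit of ATP-sensitive potassium channels, known from muscle and vascular cells, was at 5.54, 3.61 and 2.76 FPKM, with IR minus Sham at -0.80 ± 0.78. Abcg3, a rodent relative of Abcg2 with an altered ATP-binding site, was at 1.79 (0.765 to 2.81), 1.16 (0.443 to 1.88) and 0.397 (0.107 to 0.687). Its IR and Sham bounds did not overlap, and FPKM + 1 in IR was 0.501 times that in Sham, just short of 2-fold. With a pseudocount of 0.1 in place of 1 the difference passed 2-fold, at -1.92, as did that of Abca9 at -1.77. Both genes had values that stepped down from Sham to WI to IR, and both entered through libraries in which they were high. Summed lymphocyte markers (7 genes) were 6.80, 5.23 and 2.54 FPKM and summed endothelial markers (7 genes) 127, 91.3 and 111. The endothelial sum holds Lyve1, which was at 11.2, 2.73 and 33.4 FPKM. Of the 7 endothelial markers, 5 were lower in IR than in Sham. The part of these cell types in the values of Abcc9 and Abcg3 was not tested.

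Regulators, other transporters and partners of the ABC proteins were taken as a list of 46 genes, of which 44 were expressed. In WI against Sham 2 rose (Nr0b2 and Slc51b) and 0 fell. In IR against WI 2 rose (Slco1a1 and Apoa1) and 2 fell (Nr0b2 and Ppara), and in IR against Sham 2 rose (Slco1a1 and Slc51b) and 1 fell (Ppara). The medians were 0.02, -0.05 and -0.10. These counts stand against the same shares of all genes as given above for each comparison.

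Nr0b2, which encodes the small heterodimer partner induced by the bile acid receptor, was at 11.6 FPKM in Sham (5.75 to 17.5), 30.0 in WI (16.1 to 44.0) and 5.99 in IR (2.65 to 9.32). It rose by 1.30 ± 0.93 in WI against Sham and fell by 2.15 ± 0.95 in IR against WI, and in the latter the bounds did not overlap. Among the ABC genes, Abcb11, which the same receptor is known to induce, was also highest in WI, but without a 2-fold difference. Slc51b, a subunit of the basolateral bile salt exporter, was at 0.733, 5.18 and 4.36 FPKM. Its value was below 1 FPKM in Sham, with a lower bound of 0, so it entered through WI and IR, where it was high. The other subunit gene, Slc51a, was listed at 0 in all 3 libraries. Ppara, the fatty acid receptor known to induce Abcd2 and Abcd3, was at 41.2, 43.2 and 17.2 FPKM and fell by 1.28 ± 1.10 in IR against WI. Slco1a1, an organic anion uptake transporter with male-predominant expression in mouse liver, was at 14.5, 9.17 and 37.9 FPKM and was highest, as the Y-linked genes were, in IR. Apoa1, the acceptor of cholesterol from Abca1, was at 7630, 4239 and 8799 FPKM with lower bounds of 0 in Sham and IR.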

How the data were processed

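Liver mRNA of 3 groups was measured with 1 library each. The authors aligned reads to mm10 with TopHat2 2.0.9 and computed FPKM with Cufflinks 2.0.2 (Cuffdiff), and the deposited tables hold FPKM per gene with 95% bounds. The tables hold no counts, so the fragments behind each FPKM, and the precision they give, are known only through these bounds. Members, lists and tests were chosen with earlier results of these data known.

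FPKM + 1 was put on the log2 scale (pseudocount 1) for genes that reached 1 FPKM in 1 library or more. A difference of 2-fold was counted, and beside it non-overlapping 95% bounds. The interval of a difference was propagated from the bounds. With 1 library per group no test was possible. Named genes were the expressed members, of which 2 are counted but not reported here by name, and partner genes past 2-fold or needed beside a member. Alternatives were pseudocounts of 0.1 and 0.01, other filters (none, 1 in all 3 libraries, 5 in at least 1), folds of 1.5 and 3, TPM and median-ratio scaling. Gene positions are those of the tables (mm10, counted from 1). Promoter sequences are RefSeq, GRCm38.p6, matched by symbol for 38 of 50 genes. The calculation of differences and the 2-fold count were checked with known fold changes put on the Sham values, and the other steps were not checked in this way. The software was Python 3.11.15, numpy 2.4.6, pandas 2.3.3 and matplotlib 3.10.9.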

Additional observations from a re-analysis of the deposited data

How the results depend on the processing

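In WI against Sham 0 ABC transporter genes passed 2-fold, and at 1.5-fold 5 did (Abca2, Abcb11, Abcb1a and Abcd2 higher, Abcd4 lower), where 3.14% of all genes were higher and 4.27% lower. In IR against WI the count of 3 became 7 with a pseudocount of 0.1 (1 higher and 6 lower, against 7.91% and 3.57% of all genes), 7 with 0.01 (1 and 6, against 8.25% and 4.09%), 10 on the TPM scale (0 and 10, against 3.57% and 11.0%), 5 with median-ratio scaling (1 and 4, against 5.40% and 1.64%), 9 at 1.5-fold (1 and 8, against 12.4% and 7.40%), 0 at 3-fold (against 2.51% and 0.287%) and 1 by non-overlapping bounds (0 and 1, against 3.22% and 0.398%). In IR against Sham the count of 2 became 5 with a pseudocount of 0.1 (1 and 4, against 7.44% and 5.80%), 6 with 0.01 (1 and 5, against 7.73% and 6.22%), 11 on the TPM scale (0 and 11, against 2.96% and 14.4%), 9 at 1.5-fold (2 and 7, against 14.3% and 9.49%) and 0 at 3-fold (against 2.10% and 0.510%). The median difference for IR against WI was -0.10 with no filter, which adds genes under 1 FPKM, and -0.77 on the TPM scale. For IR against Sham it was -0.81 on the TPM scale. For the single genes, 102 differences of 34 genes were recomputed, and 4 moved by more than their interval with each pseudocount and 3 on the TPM scale, all of Abca9 and Abcg3. No difference past 2-fold changed sign under any alternative, but smaller ones did. Across the FPKM, TPM and median-ratio scales, 10 of 34 differences changed sign in IR against WI. Against Sham, 7 of 34 did so for IR and 3 of 34 for WI. No paired analysis was possible because each group has 1 library. The lack of replicates, the male label that the Sham and WI libraries go against and the bounds near 0.9 on the log2 scale (median interval 0.88 to 0.89) limit what can be seen to differences near 2-fold or more.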

Other observations

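The transporter associated with antigen processing and the cystic fibrosis channel belong to the ABC family under other symbols. The former carries peptides into the endoplasmic reticulum, where they are loaded onto MHC class I. Tap1 was at 12.7 FPKM in Sham, 16.3 in WI and 11.5 in IR, and Tap2 at 10.3, 12.2 and 11.9. Neither passed 2-fold in any comparison. Cftr, a marker of bile duct cells, was at 0.0419, 0.0389 and 0.160 FPKM, below the limit in each library, beside summed cholangiocyte markers (7 genes, Cftr among them) of 56.3, 65.5 and 96.5. Spp1 made up most of that sum, and the other 6 markers together gave 4.51, 6.83 and 9.77.

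Among the partner genes of the intracellular ABC proteins, none of the 5 peroxisomal, 6 mitochondrial heme and iron-sulfur or 4 ribosome recycling and translation genes passed 2-fold in any comparison. In no comparison did more than 5.78% of all expressed genes rise or more than 2.15% fall, so this lack of calls is near the background. In IR against WI the medians of these sets were -0.01, -0.06 and 0.24, against 0.03 over all expressed genes. All 4 translation genes were higher in value as deposited, as were Abce1, Abcf1, Abcf2 and Abcf3, where 52.4% of all genes were higher. The interval of each of these genes included 0.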
